A study of Quercus robur with 165 samples.

Results

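Taproots of *Quercus robur* seedlings coded as normal, and not as thick or dying, were compared between 2 length classes, medium and short, within each of 3 types of cultivation. The comparison used 18 of the 165 libraries of the series, namely all libraries of Dataset 2 (90 libraries) that carry the codes for the meristematic zone of the taproot, normal morphology and medium or short length. They formed 6 groups of 3 libraries, which gave 9 medium and 9 short libraries. Container seedlings grew in single small containers in which taproots are air-pruned, rhizotron seedlings grew from acorns sown in a clear-walled chamber, and transplanted seedlings spent their first season in a container and were then moved to a rhizotron. Medium and short taproots were matched within a cultivation, so that length class was the only labelled difference in each of the 3 contrasts. The labels give no genotype and no treatment other than the cultivation. Transplanted plants were older at harvest than the others, so that cultivation and age cannot be told apart wherever transplanted plants are set beside the others. The labels give no age for the libraries of Dataset 2. The paper states that the container and rhizotron plants of Dataset 2 grew from 2-year-old acorns. Transplanted seedlings had been sown in the year before, from the same lot of acorns. Acorn age and year of sowing therefore also differ between transplanted plants and the others. The replicates are described as biological, but the plants behind each library are not given in the sources used here, and p-values measure only the spread between these libraries, which may be partly technical. The stated purpose of the series was to find genes that regulate taproot growth in container seedlings and in seedlings sown in soil.

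A taproot grows by cell division in the meristematic zone at its tip and by expansion of the new cells in the elongation zone behind it. Auxin, ethylene and gibberellin control both processes in roots of model plants. Air pruning kills or stops the tip of a taproot that reaches the container floor.

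The deposited gene IDs come from the study's own transcript assembly and carry no names. The exceptions are 11 genes of the RT-qPCR assays (9 target and 2 reference genes), whose primers are listed with an ID. The primers of the 6 genes on which the results below turn are shown because they are the sequences that identify these genes. All are given from the 5′ to the 3′ end.
PCC13 forward: ctctatgagagagccgaagaaaa
PCC13 reverse: cgagagatatagtctgtgaactgtgc
CERD forward: ttgctgctggaacaacagat
CERD reverse: ttcccttgtcatctccttgc
ACO1 forward: gtaagtaattccattttgacaatcca
ACO1 reverse: cctacactagaagtgagatccatcc
ACO5 forward: cggcaagttggagaatgtg
ACO5 reverse: gctggccactcgttattgtc
PIN2 forward: tcttcacaccagaccagtgc
PIN2 reverse: ggaaggaaagtaatggaactgc
GST forward: tgaatctagggcaattacagca
GST reverse: gagatcagttccagtttccttga

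The 18 libraries held 25817413 to 32582766 expected counts (reads assigned to genes). Between 21361 and 23152 genes had at least 10 counts. How far 2 libraries lay from each other was expressed as a coefficient of variation (CV) after removal of counting noise, over 5147 genes with a mean of 1000 to 10000 counts. Of the 18 pairs of libraries within a group, 5 had a CV under 0.05 and were called near-identical. These were short container replicates 1 and 2, short transplanted replicates 2 and 3, short rhizotron replicates 1 and 2, medium transplanted replicates 2 and 3, and medium rhizotron replicates 2 and 3. They still differed by 1.39 to 2.88 times the variance that counting noise gives, and so did not agree within sampling noise. Medium and short libraries of the same cultivation were 0.170 to 0.445 apart (27 pairs, median 0.189). Short container replicate 3 stood apart from all groups, with a median CV of 0.393 to libraries of other groups against 0.201 to 0.266 for the other 17 libraries, and it had the fewest genes with at least 10 counts. Because near-identical libraries may not be independent, the main counts below are also given with these libraries summed (13 units, 7 medium and 6 short, written as "summed" beside an adjusted p), and without short container replicate 3. The last of these leaves a single unit of short container taproots, which is then assumed to vary like the other groups.

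**Figure D1:**
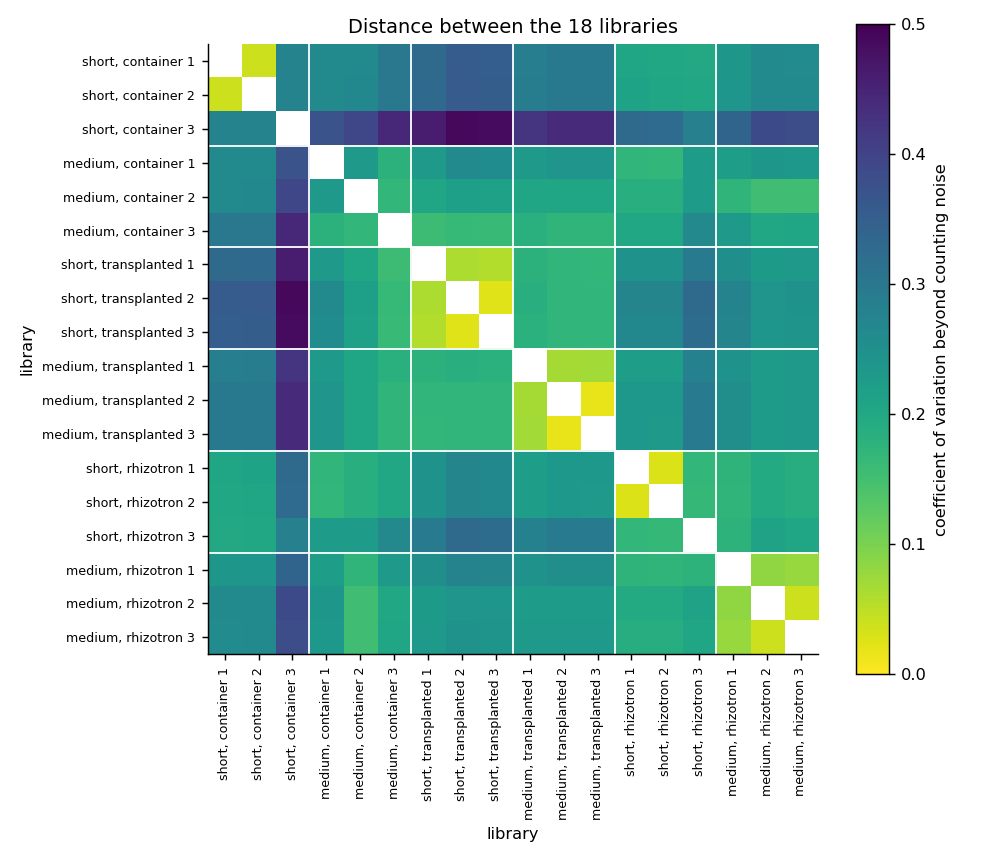
Coefficient of variation beyond counting noise between every pair of the 18 libraries, named by length class, cultivation and replicate and separated by white lines into groups of 3. The 5 near-identical pairs are the palest yellow cells beside the diagonal (under 0.05), and the row of short container replicate 3 is the darkest, up to 0.489 from short transplanted taproots.

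Short taproots of different cultivations were 0.199 to 0.489 apart (27 pairs, median 0.296) and medium taproots of different cultivations 0.154 to 0.252 (27 pairs, median 0.225). The widest separation was that of short container from short transplanted taproots (median 0.355, 9 pairs), and it was 0.328 or more in every pair. The 3 medium container libraries were 0.169 to 0.230 from each other. At their closest they were 0.154 from medium rhizotron, 0.158 from short transplanted, 0.168 from short rhizotron and 0.173 from medium transplanted libraries, so that the medium container group was not separated from these 4 groups by more than its own spread. These pairs share libraries and are given without a test.

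Over the 3 cultivations together, 714 of 24918 genes tested (2.87%) passed an adjusted p of 0.05 in edgeR's quasi-likelihood test, 374 of them higher and 340 lower in medium taproots. The direction was the same in all 3 cultivations for 658 of the 714 genes (92.2%), as the pooled test favours, and for 22.02% of all genes tested. The difference between cultivations, given below, also passed for 194 of the 714 genes (27.17%), beside 41.9% of all genes tested. A low share is likewise favoured, because the pooled test counts such differences as spread. The count fell to 3 genes when near-identical libraries were summed, at which setting 4205 genes had an unadjusted p under 0.05, and to 4 genes when short container replicate 3 was also left out. DESeq2 called 2427 genes. Without TMM factors the split was 532 higher and 175 lower.

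Among called genes with a mean of at least 10 TPM in the higher length class and the same direction in every cultivation, the 2 that rose most were MSTRG.33546 and MSTRG.15431, for which the files give no function. MSTRG.33546 stood at 0.340 to 3.59 TPM (median 2.73) in the 9 short libraries and at 7.56 to 27.01 TPM (median 13.1) in the 9 medium libraries, with no overlap. Its log2 fold change was 2.86 ± 0.41 (SE, adjusted p = 0.0023, or 0.111 with near-identical libraries summed). MSTRG.15431 stood at 23.3 to 169.2 TPM (median 88.2) in short and 157.3 to 733.3 TPM (median 391.3) in medium libraries. Within each cultivation its medium libraries lay above all short ones, and the log2 fold change was 2.17 ± 0.32 (adjusted p = 0.0029, or 0.123 summed). Under the same limits the 2 that fell most were MSTRG.14155 (log2 fold change -2.75 ± 0.45, adjusted p = 0.0046, or 0.134 summed) and MSTRG.30717 (-2.67 ± 0.63, adjusted p = 0.0325, or 0.260 summed). In containers MSTRG.14155 was at 34.5, 31.2 and 19.5 TPM in short and at 2.78, 6 and 11.9 TPM in medium libraries. In the rhizotron it was at 19.8, 19.8 and 13.1 TPM in short and at 0.720, 0.860 and 0.870 TPM in medium libraries, whereas in transplanted seedlings both classes were near 1 TPM (0.850 to 1.21 in short, 0.80 to 0.83 in medium). MSTRG.30717 was at 517.6 and 515.0 TPM in the near-identical short container libraries but at 5.18 TPM in the third, which was below all 3 medium libraries (74.4, 12.2 and 5.28 TPM). Its pooled call was lost in 8 of the 18 fits that left out 1 library (adjusted p up to 0.0641, without medium rhizotron replicate 2). By edgeR's test, the size of the change differed between cultivations for MSTRG.33546 (adjusted p = 0.0088, or 0.103 summed), MSTRG.15431 (1.92e-04, or 0.0244 summed) and MSTRG.14155 (0.0011, or 0.0368 summed). For MSTRG.30717 this test did not pass (0.664, or 0.868 summed).

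The 3 genes still called with near-identical libraries summed were looked at after their values were seen. All were lower in medium taproots of every cultivation, and the test of a difference between cultivations passed for none of them (adjusted p = 0.685, 0.893 and 0.892, in the order below). Both traits are favoured by the pooled test that picked these genes. MSTRG.12251 was at 14.3, 12.8 and 12.2 TPM in short and 8.51, 9.72 and 9.70 TPM in medium container taproots, at 9.66, 9.79 and 8.19 against 5.26, 5.19 and 5.31 TPM in transplanted seedlings, and at 15.8, 15.7 and 17.2 against 9.95, 8.95 and 9.54 TPM in the rhizotron. The medium libraries lay below the short ones in each cultivation, and the log2 fold change over all was -0.84 ± 0.07 (adjusted p = 1.37e-05, or 0.0064 summed). MSTRG.30568 fell by 1.68 on the log2 scale (SE 0.17, adjusted p = 8.58e-05, or 0.0135 summed), from 2.03 to 5.61 TPM in the 9 short libraries to 0.400 to 2.00 TPM in the 9 medium ones, with no overlap. MSTRG.7461 fell by 1.51 (SE 0.13, adjusted p = 1.65e-05, or 0.0135 summed), from 42.0 to 114.3 TPM in short to 15.9 to 39.2 TPM in medium libraries, again with no overlap. Without short container replicate 3 as well, the adjusted p of the 3 genes was 0.0125, 0.0318 and 0.0097. The files pair none of these IDs with a name.

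In containers 9454 genes (37.9%) differed between medium and short taproots, 4643 higher (18.6%) and 4811 lower (19.3%) in medium. In transplanted seedlings 3704 genes (14.9%) differed, 1677 higher (6.73%) and 2027 lower (8.13%). In the rhizotron 3097 genes (12.4%) differed, 1438 higher (5.77%) and 1659 lower (6.66%). The median absolute log2 fold change over all genes was 0.42 in containers, 0.26 in transplanted seedlings and 0.26 in the rhizotron. With near-identical libraries summed the counts were 6252, 678 and 47, and without short container replicate 3 as well they were 2078, 1208 and 378. The container count was thus the highest at each of these settings, while the order of transplanted and rhizotron was kept and their sizes were not. No medium container libraries were near-identical, so that the container contrast kept more units than the others when libraries were summed. The counts at that setting are therefore not on an equal footing. At every setting the contrasts also shared the spread of each gene, although libraries within a group were not equally alike. The median CV within a group was 0.2755 in short and 0.1784 in medium container taproots. It was 0.0572 and 0.0671 in transplanted seedlings, and 0.1671 and 0.0781 in the rhizotron. The order of the counts therefore cannot be read as a ranking of the cultivations. A spread taken from each cultivation alone was not tested. Without TMM factors, the median log2 fold change of all genes moved to 0.17 in containers and 0.09 in the rhizotron. The splits then became 6058 higher and 3124 lower in containers, and 1700 higher and 1187 lower in the rhizotron, so that the balance of directions there depends on the scaling.

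**Figure D2:**
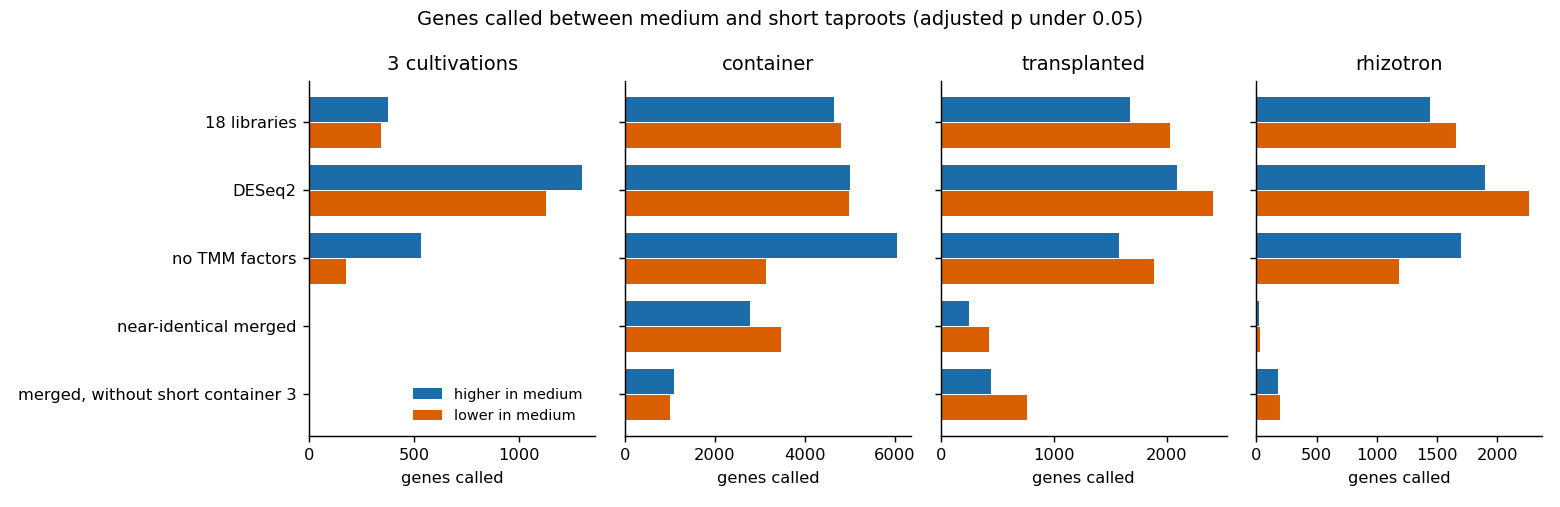
Number of genes called (adjusted p under 0.05) as higher (blue) or lower (orange) in medium than in short taproots, for the 3 cultivations together and each alone, with a separate horizontal axis per panel. From the 18 libraries as deposited to near-identical libraries merged, the calls fell from 714 to 3 over all, 9454 to 6252 in the container, 3704 to 678 after transplanting and 3097 to 47 in the rhizotron.

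Within each cultivation, the genes with the greatest rise and fall were taken from called genes with a mean of at least 10 TPM in the higher length class and no overlap between the classes, and several were nearly absent from one class. In containers MSTRG.3889 was at 83.6, 74.4 and 206.9 TPM in short and at 0, 0.930 and 0 TPM in medium taproots. It was at least 165.2-fold higher in short taproots, computed against a floor of 3 counts per library. The same gene went the other way after transplanting, with 0, 0.290 and 0 TPM in short and 17.0, 16.3 and 17.8 TPM in medium taproots (adjusted p = 3.94e-04, or 0.0137 summed). MSTRG.34966 rose most in containers under these limits, from 0.720, 0.350 and 0.250 TPM to 9.16, 33.5 and 15.7 TPM (log2 fold change 5.15 ± 0.44, adjusted p = 2.06e-06, or 0.0020 summed). It fell in transplanted seedlings, from 26.0, 28.6 and 27.1 to 7.61, 8.28 and 10.03 TPM (-1.64 ± 0.33, adjusted p = 0.0031, or 0.0934 summed), and in the rhizotron, from 7.12, 8.43 and 11.6 to 3.84, 3.52 and 4.64 TPM (-1.12 ± 0.34, adjusted p = 0.0410, or 0.252 summed).

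In transplanted seedlings MSTRG.12220 was listed at 0 in all 3 short libraries and stood at 27.3, 24.8 and 27.01 TPM in the medium ones, at least 267.7-fold higher in medium taproots. MSTRG.132 showed the opposite, with 13.1, 12.01 and 14.2 TPM in short and 0 in all medium libraries, at least 58.0-fold higher in short taproots. Their adjusted p was 0.0206 and 0.0234, both calls were lost with near-identical libraries summed (0.185 and 0.173), and leaving out 1 of the 6 transplanted libraries ended the first call in 4 fits (up to 0.0652, without short replicate 2) and the second in all 6 (up to 0.0695, without medium replicate 3). Replicates of other groups disagreed on both genes, as short container taproots did on MSTRG.12220 (15.1, 13.7 and 0 TPM) and medium container taproots on MSTRG.132 (10.7, 0 and 7.46 TPM). In the rhizotron MSTRG.8774 was at 0.1, 0 and 0.05 TPM in short and 13.2, 15.4 and 12.1 TPM in medium taproots, at least 87.7-fold higher in medium (adjusted p = 2.83e-05, or 0.0161 summed). MSTRG.14925 fell there from 13.99, 13.3 and 3.84 TPM to 0, 0.0700 and 0.390 TPM (adjusted p = 7.57e-04, or 0.0793 summed).

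Genes with at least 10 counts in every library of one length class and at most 3 in every library of the other numbered 35 in containers (28 present in medium, 7 in short), 234 in transplanted seedlings (157 and 77) and 96 in the rhizotron (53 and 43), of 35397 genes. With 50 counts required, 2, 31 and 8 remained. Over all 9 medium against all 9 short libraries there were 0 such genes at either limit, so that by these limits no gene was present in one length class only across the cultivations.

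The difference between medium and short taproots itself differed between cultivations for 10433 genes (41.9%). By pairs of cultivations, 9626 genes differed between the transplanted and container contrasts, 4748 between the rhizotron and transplanted contrasts and 3864 between the rhizotron and container contrasts. The counts with near-identical libraries summed were 3252 for all and 4978, 665 and 245 for the pairs. The contrasts of container and transplanted seedlings had no library in common, though they shared 1 estimate of the spread, and 1720 genes were called in both (18.2% of the container calls, 46.4% of the transplanted calls). Of these, 1449 (84.2%) had opposite directions, with 946 higher in medium container taproots and lower in medium transplanted taproots, and 503 the reverse. The other 15.8% had the same direction, as did 37.7% of all genes tested. Summed, 281 genes were called in both and 85.1% had opposite directions. Over all 24918 genes the log2 fold changes of the container and transplanted contrasts were inversely related (Spearman's rho -0.29), those of container and rhizotron directly (0.27), and those of transplanted and rhizotron weakly inversely (-0.14). Genes share libraries, scaling and depth within a contrast and are not independent replicates, and these values are descriptions. Container and rhizotron shared 1360 called genes, 79.9% with the same direction, beside 63.2% of all genes tested. Transplanted and rhizotron shared 784, 72.7% with opposite directions and 27.3% with the same, beside 43.05% of all genes with the same. In all, 407 genes (1.63%) were called in each of the 3 cultivations, 20 of them higher and 13 lower in medium taproots throughout. The direction was thus the same for 33 of the 407 genes (8.11%), against 22.02% of all genes tested.

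**Figure D3:**
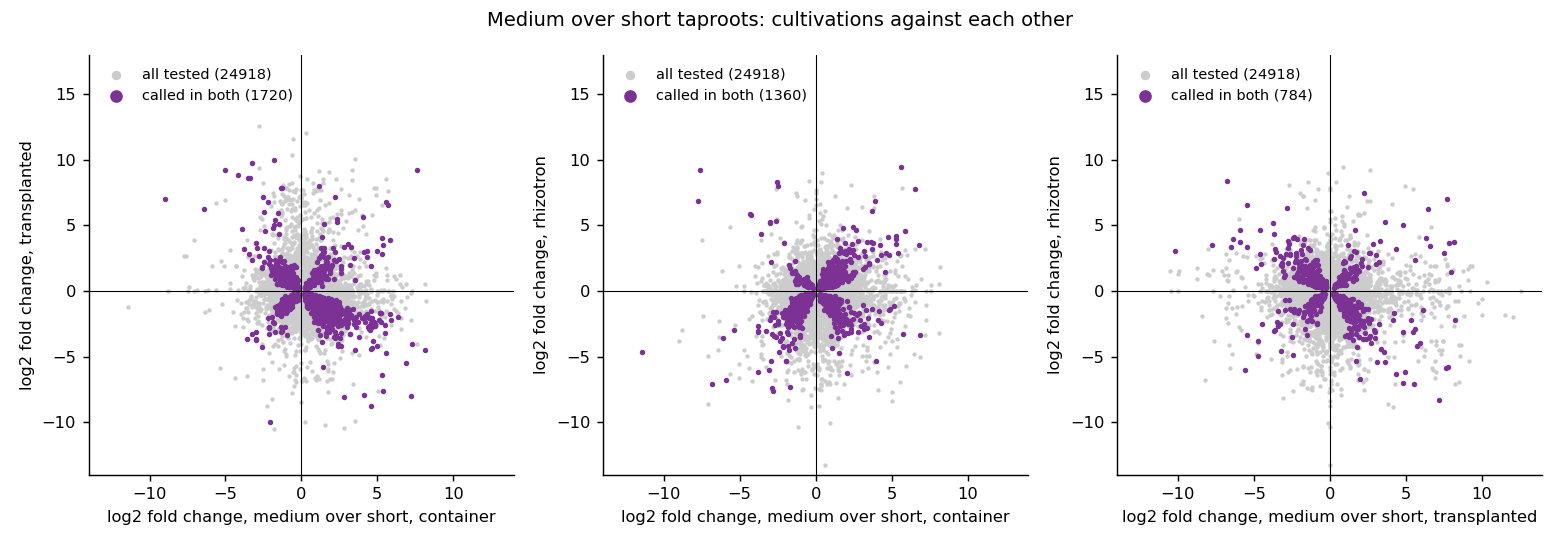
Log2 fold change of medium over short taproots in each pair of cultivations, for all 24918 genes tested (grey) and those called in both (purple). In the left panel most purple points lie to the upper left and lower right of the origin (1449 of 1720 genes had opposite directions), and in the middle panel most lie to the upper right and lower left (79.9% of 1360 had the same direction). Of all genes tested, 37.7% had the same direction in the left panel and 63.2% in the middle panel.

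The 2 genes with the smallest p for a difference between cultivations had this inverse pattern. MSTRG.30271 was at 6.37, 5.59 and 6.37 TPM in short and 20.7, 27.8 and 22.8 TPM in medium container taproots, and at 39.7, 39.4 and 37.2 TPM in short and 5.19, 4.73 and 5.48 TPM in medium taproots of transplanted seedlings. Medium taproots were thus higher in containers (log2 fold change 1.66 ± 0.13) and lower after transplanting (-2.92 ± 0.13), with -0.66 ± 0.12 in the rhizotron (difference between cultivations, adjusted p = 3.29e-09, or 1.40e-04 summed). MSTRG.34251 was at 0.170, 0.170 and 0.160 TPM in short and 4.69, 6.30 and 3.87 TPM in medium container taproots, against 11.7, 12.1 and 12.2 TPM in short and 2.66, 3.05 and 3.08 TPM in medium transplanted taproots (log2 fold changes 4.58 ± 0.27 and -2.04 ± 0.20, difference adjusted p = 3.97e-08, or 6.88e-04 summed). In both genes the short groups lay farther apart than the medium groups.

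Among the genes with names, none of the 11 was called over the 3 cultivations, and 8 of the 11 differed between medium and short taproots in at least 1 cultivation, as did 12798 of all 24918 genes tested (51.4%). The protein of *PCC13* (MSTRG.32141) belongs to the desiccation-related proteins first described in the resurrection plant *Craterostigma plantagineum*. In containers *PCC13* was at 2.20, 1.33 and 0.660 TPM in short and at 13.3, 17.97 and 12.3 TPM in medium taproots. In transplanted seedlings it was at 31.0, 30.7 and 27.3 TPM in short and 10.4, 11.0 and 9.18 TPM in medium taproots. In the rhizotron it was at 2.48, 2.27 and 0.830 TPM in short and 5.96, 6.44 and 7.09 TPM in medium taproots. The length classes did not overlap in any cultivation, and *PCC13* rose with length in containers (log2 fold change 3.10 ± 0.30, adjusted p = 5.66e-06, or 0.0024 summed) and in the rhizotron (1.68 ± 0.29, adjusted p = 0.0021, or 0.0837 summed) and fell in transplanted seedlings (-1.57 ± 0.26, adjusted p = 7.63e-04, or 0.0460 summed). The contrasts differed between cultivations (adjusted p = 2.53e-06, or 0.0029 summed).

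*CERD* (MSTRG.1646) encodes a neutral ceramidase, an enzyme that splits ceramide into a sphingoid base and a fatty acid. Its level in medium taproots was 61.3 to 75.8 TPM in all 9 libraries, whereas short taproots were at 39.3, 41.7 and 30.1 TPM in containers, 108.3, 112.1 and 111.1 TPM in transplanted seedlings and 58.5, 53.4 and 56.3 TPM in the rhizotron. Short taproots of transplanted seedlings were therefore above, and those of the other cultivations below, all medium libraries. *CERD* rose with length in containers (log2 fold change 0.66 ± 0.07, adjusted p = 8.68e-06, or 0.0034 summed) and fell after transplanting (-0.69 ± 0.07, adjusted p = 1.14e-05, or 0.0098 summed), and the change in the rhizotron did not pass (0.14 ± 0.07, adjusted p = 0.179). The difference between cultivations had an adjusted p of 6.52e-07 (0.0020 summed).

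*ACO1* (MSTRG.24659) and *ACO5* (MSTRG.13653) encode ACC oxidases, which catalyse the last step of ethylene synthesis, and they moved in opposite directions in containers. *ACO1* was at 15.6, 15.4 and 8.45 TPM in short and 52.3, 33.4 and 47.1 TPM in medium container taproots (log2 fold change 1.48 ± 0.23, adjusted p = 2.71e-04, or 0.0081 summed). *ACO5* was at 47.9, 51.1 and 28.9 TPM in short and 6.73, 25.3 and 10.5 TPM in medium container taproots (-1.89 ± 0.28, adjusted p = 1.54e-04, or 0.0080 summed). Neither pair of groups overlapped. Without short container replicate 3 and with near-identical libraries summed, the adjusted p was 0.0645 for *ACO1* and 0.0266 for *ACO5*. In transplanted seedlings *ACO1* was at 81.2 to 87.2 TPM in short and 66.7 to 73.9 TPM in medium taproots (-0.24 ± 0.22, adjusted p = 0.518) and *ACO5* at 26.1 to 29.6 and 32.9 to 36.2 TPM (0.31 ± 0.27, adjusted p = 0.479). In the rhizotron the classes of *ACO1* overlapped (16.2 to 34.6 TPM in short, 25.9 to 30.6 TPM in medium) and those of *ACO5* were 37.5 to 46.4 TPM in short and 35.1 to 37.0 TPM in medium taproots, and neither gene passed (adjusted p = 0.905 and 0.323). For *ACO5* the rhizotron difference passed when medium container replicate 2 was left out (adjusted p = 0.032).

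*PIN2* (MSTRG.5844) encodes an auxin efflux carrier that in *Arabidopsis* moves auxin away from the root tip and is needed for gravitropism. In transplanted seedlings it was at 34.3, 32.6 and 31.9 TPM in short and 51.7, 50.5 and 50.7 TPM in medium taproots, and rose by 0.63 ± 0.12 on the log2 scale (adjusted p = 0.0018, or 0.0858 summed). In containers the classes overlapped in TPM (37.8, 38.5 and 29.5 in short, 26.3, 41.7 and 30.6 in medium). The log2 fold change there was -0.38 ± 0.12 (adjusted p = 0.0166, or 0.0847 summed), and -0.22 without TMM factors (adjusted p = 0.199), when the median of all genes was 0.17. The container call was lost without medium container replicate 1 (adjusted p = 0.0588) or 3 (0.083). In the rhizotron *PIN2* was at 27.02, 27 and 33.0 TPM in short and 36.9, 34.8 and 34.3 TPM in medium taproots (0.13 ± 0.12, adjusted p = 0.478). The difference between cultivations passed (adjusted p = 8.53e-04, 0.0390 summed and 0.0644 summed without short container replicate 3).

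*GST* (MSTRG.31078) encodes a glutathione S-transferase, a family that conjugates glutathione to reactive compounds. It was at 594.2, 589.5 and 651.2 TPM in short and 419.3, 413.6 and 321.3 TPM in medium container taproots, without overlap (log2 fold change -0.96 ± 0.18, adjusted p = 9.21e-04, or 0.0104 summed, and 0.0873 summed without short container replicate 3). In transplanted seedlings the order was reversed, with 319.1, 272.1 and 276.6 TPM in short and 438.6, 413.4 and 397.1 TPM in medium taproots, but this difference did not pass (0.53 ± 0.18, adjusted p = 0.0646, and 0.0253 without short container replicate 3, 0.049 without short rhizotron replicate 3, and 0.0433 and 0.0479 without medium container replicate 1 or 3). In the rhizotron short taproots were at 554.8 to 721.1 TPM and medium taproots at 482.3 to 584.8 TPM (-0.39 ± 0.18, adjusted p = 0.164). *GERL1* (MSTRG.23367) encodes a germin-like protein, one of a family of cell wall glycoproteins. In the rhizotron it was at 391.7, 379.1 and 44.0 TPM in short and at 20.3, 20.6 and 20.3 TPM in medium taproots (-3.91 ± 0.67, adjusted p = 0.0018, or 0.122 summed). The short rhizotron libraries did not agree on its level, and replicate 3, which was not near-identical to the others, was nearest to the medium taproots. In containers *GERL1* was at 62.9, 61.1 and 203.5 TPM in short and 280.8, 404.5 and 200.2 TPM in medium taproots (1.05 ± 0.59, adjusted p = 0.173, and 0.0093 without short container replicate 3). In transplanted seedlings it was at 544.3, 580.3 and 562.0 TPM in short and 270.0, 267.3 and 273.6 TPM in medium taproots, which did not pass (-1.09 ± 0.59, adjusted p = 0.238).

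*G3OX* (MSTRG.22681), a gibberellin 3-beta-dioxygenase that makes active gibberellins, and *WRKY* (MSTRG.4799), a transcription factor, were not called in any cultivation with all 18 libraries. Without medium container replicate 2, *G3OX* passed in the container (adjusted p = 0.0393) and *WRKY* in transplanted seedlings (0.0159) and the rhizotron (0.0269). *G3OX* was at 0.620 to 1.70 TPM in the 6 libraries of transplanted seedlings and at 3.62 to 15.1 TPM in the other 12, and *WRKY* was between 3.85 and 13.6 TPM throughout. The reference genes of the RT-qPCR were *UBQ* (MSTRG.26207, ubiquitin) and *EF* (MSTRG.28793, elongation factor). *UBQ* was at 180.4, 173.8 and 206.9 TPM in short and at 156.2, 146.9 and 160.9 TPM in medium container taproots (log2 fold change -0.57 ± 0.14, adjusted p = 0.0041, or 0.0173 summed, and 0.164 summed without short container replicate 3). Its adjusted p was 0.628 in transplanted seedlings and 0.306 in the rhizotron. *EF* was at 2526 to 3877 TPM in the 18 libraries and was not called (container -0.41 ± 0.17, adjusted p = 0.0655, and 0.0322 and 0.0223 without short container replicate 1 or 2).

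**Figure D4:**
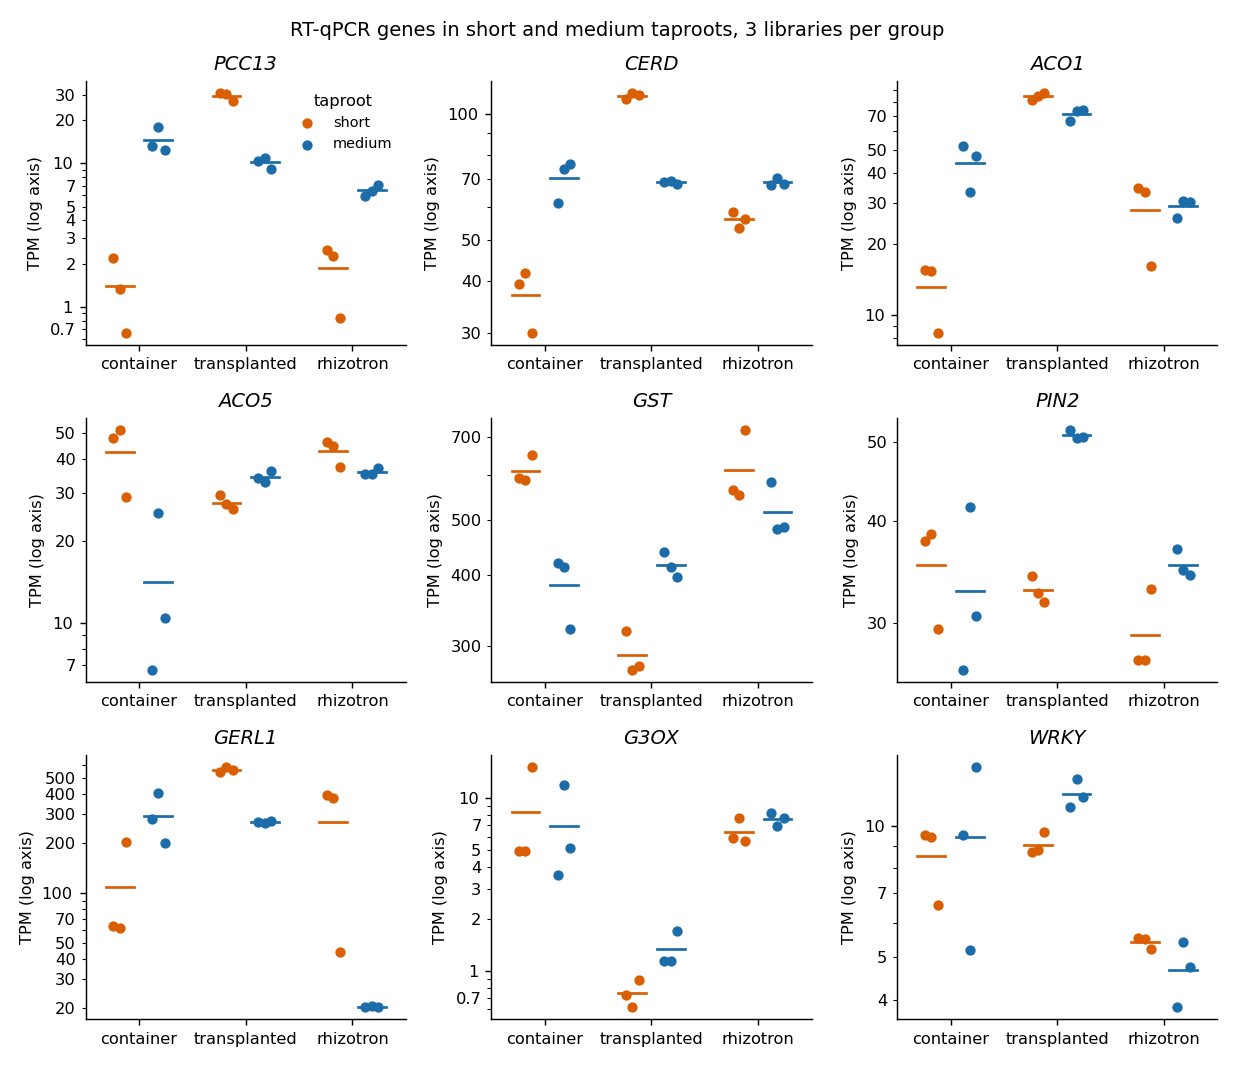
TPM (log axis, a separate scale per gene) of the 9 RT-qPCR genes in every library, with points for the 3 libraries of a group, a line at their mean, orange for short and blue for medium taproots. In TPM, *PCC13* and *CERD* have medium above short in the container and the rhizotron and below short after transplanting, and *ACO1* and *ACO5* separate in the container in opposite directions. The rhizotron difference of *CERD* did not pass in edgeR's test (adjusted p = 0.179).

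Because the IDs carry no names, groups of genes were taken from other libraries of the series. Genes were listed when long, normal taproots or lateral roots of Dataset 2 differed by a log2 value of at least 3 between root parts or between dying and growing taproots. Taproots coded as normal are called growing here. None of the 18 libraries was used for this. The lists held 17 genes of the elongation zone and 119 of the meristematic zone, 191 genes of lateral roots and 80 of taproots against lateral roots, and 32 genes of dying and 73 of growing container taproots. Some genes were on more than 1 list, with 9 shared by elongation zone and lateral root and 27 by meristematic zone and growing taproot. With a log2 limit of 2 the lists also held named genes. *PCC13* was on those of elongation zone and lateral root, and *GERL1* on those of dying taproot and taproot against lateral root. *PIN2* and *GST* were on those of meristematic zone and growing taproot, *GST* also on taproot against lateral root, and *ACO5* on growing taproot. Lists and named genes are thus not separate at that limit. Levels in bulk tissue cannot tell fewer cells of a type from less RNA per cell.

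In containers, medium taproots had more RNA of elongation zone and lateral root genes and less of meristematic zone genes than short taproots. Of the 17 elongation zone genes 12 were higher and 0 lower (background 18.6% and 19.3%), with a median log2 fold change of 1.91 against 0.01 over all genes. Their summed level was 38.1 to 50.4 TPM in short and 114.5 to 128.9 TPM in medium container libraries. Of the 168 lateral root genes that passed the filter on low counts, 95 were higher and 2 lower (median 1.22), and their summed level was 783.7 to 1005 TPM against 1833 to 2346 TPM. Of the 119 meristematic zone genes 3 were higher and 91 lower (median -0.79), and their summed level was 8992 to 10010 TPM in short and 5153 to 7831 TPM in medium libraries. Of the 73 genes of growing taproots 1 was higher and 50 were lower (median -1.01). With near-identical libraries summed, 11 elongation zone genes, 81 lateral root genes and 0 meristematic zone genes were higher (background 11%), and 0, 1 and 71 were lower (background 13.8%). Without short container replicate 3 as well, 4, 58 and 0 were higher (background 4.16%) and 0, 2 and 17 lower (background 3.79%), with medians of 1.58, 1.34 and -0.70.

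In transplanted seedlings the lists went the other way. Of the elongation zone genes 0 were higher and 12 lower (median -1.73, background 6.73% and 8.13%), and their summed level fell from 171.6 to 182.4 TPM in short to 44.5 to 47.7 TPM in medium libraries. Of the lateral root genes 2 were higher and 108 lower (median -1.60), from 3718 to 3794 TPM in short to 1470 to 1601 TPM in medium libraries. Of the meristematic zone genes 18 were higher and 1 lower (median 0.30), with a summed level of 5677 to 6157 TPM in short and 7184 to 7254 TPM in medium libraries. With near-identical libraries summed, 4 elongation zone and 45 lateral root genes were lower (background 1.69%), and 1 meristematic zone gene of 119 was higher (background 1.01%). Of the growing taproot genes 5 were higher and 4 lower (median 0.28), and of the taproot genes low in lateral roots 16 were higher and 2 lower (median 0.48, and 1 and 1 summed). Short taproots of transplanted seedlings thus had the highest summed levels of elongation zone and lateral root genes among the 6 groups, and short container taproots the lowest of lateral root genes. The part of other root parts in the remaining differences between medium and short taproots was not tested.

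In the rhizotron the elongation zone, lateral root and meristematic zone lists had medians of 0.07, 0.05 and 0.04, with 2 higher and 1 lower, 17 higher and 10 lower, and 8 higher and 5 lower genes (background 5.77% and 6.66%). Short rhizotron replicate 3 had a summed elongation zone level of 131.8 TPM, whereas the near-identical replicates 1 and 2 were at 51.6 and 55.4 TPM, and the medium libraries lay between at 84.4 to 109.1 TPM. Genes of dying taproots differed more. Of the 30 that passed the filter, 1 was higher and 21 lower in medium taproots (median -3.03), and their summed level was 1181, 1206 and 405.5 TPM in short against 88.6 to 98.5 TPM in medium libraries. With near-identical libraries summed, 2 were lower (median -2.93, background 0.107%). The taproot genes low in lateral roots were lower as well, with 4 higher and 32 lower (median -1.02, and 0 and 0 summed), whereas 13 were higher and 12 lower in containers (median 0.30). Of the growing taproot genes 5 were higher and 2 lower in the rhizotron (median -0.10). In containers 10 of the 30 genes of dying taproots were higher and 4 lower (median 0.50, background 18.6% and 19.3%), and the medium libraries varied from 533.9 to 1586 TPM beside 529.2 to 574.4 TPM in short libraries. In transplanted seedlings 0 were higher and 2 lower (median -0.36, background 6.73% and 8.13%), while the summed level went the other way, from 716.8 to 737.3 TPM in short to 911.3 to 955.6 TPM in medium libraries. All 18 libraries carry the code for normal roots and not that for dying roots.

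**Figure D5:**
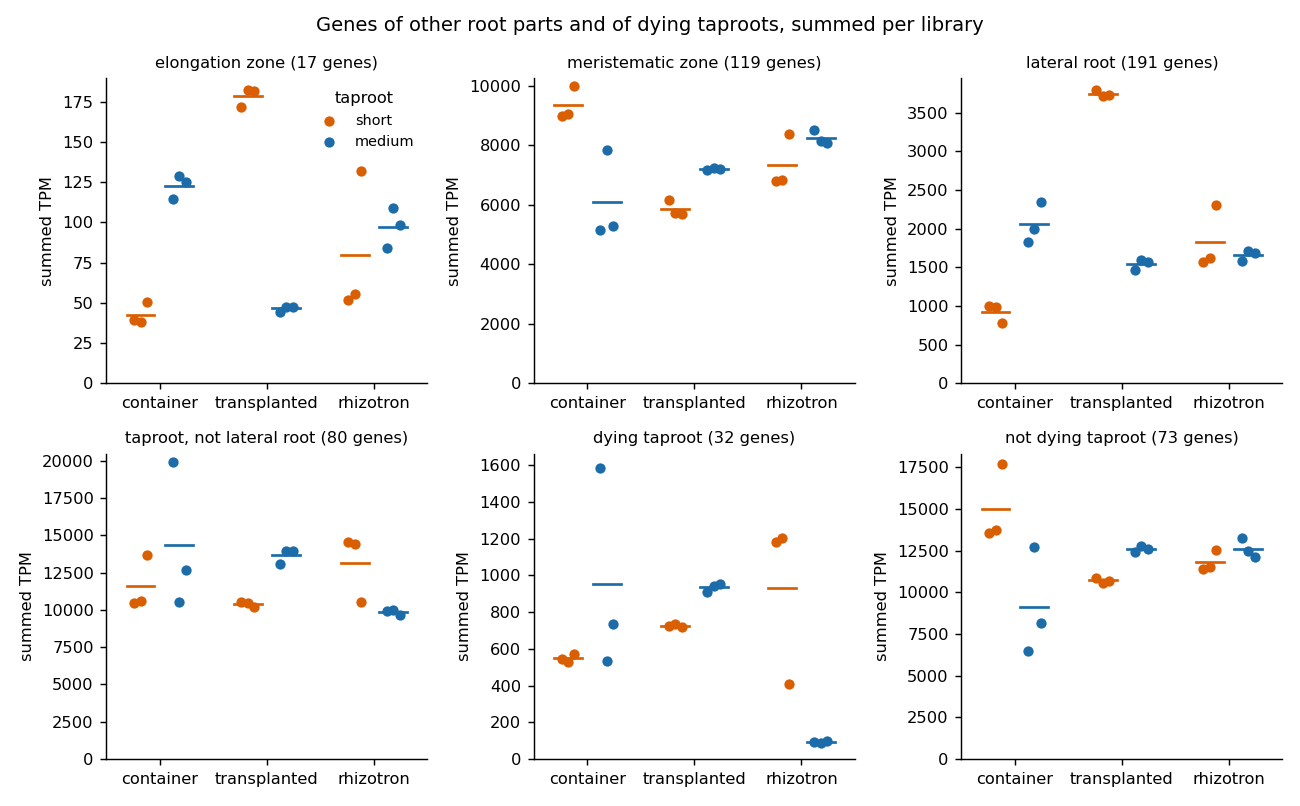
Summed TPM per library of the 6 gene lists, with a point for each of the 3 libraries of a group, a line at the mean, orange for short and blue for medium taproots, and vertical axes that start at 0. Elongation zone and lateral root genes are higher in medium taproots in the container and higher in short taproots after transplanting, and dying taproot genes are at 88.6 to 98.5 TPM in medium rhizotron taproots.

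Long taproots of Dataset 2 (9 libraries, 3 per cultivation) are given beside the other classes as values, since their contrasts share libraries with those above. *PCC13* was at 40.1, 40.5 and 42.6 TPM in long container taproots, above all short and medium ones. After transplanting it was at 5.09, 11.97 and 1.54 TPM in long taproots, below all short ones. In the rhizotron it was at 3.9, 2.5 and 2.45 TPM in long taproots, between the short and the medium values except for 1 library below the highest short one. *CERD* was at 78.2, 82.2 and 81.7 TPM in long container taproots and 64.0, 63.5 and 53.7 TPM in long transplanted taproots, in both cases beyond the medium class as seen from the short class. In the rhizotron, however, long taproots were at 50.9, 54.5 and 55.1 TPM, below all medium libraries and within or below the range of the short ones. *PIN2* was at 67.7, 51.0 and 56.9 TPM in long transplanted and 45.5, 58.1 and 56.5 TPM in long rhizotron taproots, and at 29.7, 34.5 and 34.7 TPM in long container taproots, within the range of the short and medium ones. *ACO1* was at 46.5, 50.9 and 55.2 TPM in long container taproots, at 50.6, 36.4 and 25.7 TPM in long transplanted taproots and at 33.3, 36.4 and 36.0 TPM in the rhizotron. *ACO5* was at 36.8, 34.1 and 32.4 TPM in long container taproots, above all medium ones, at 67.9, 30.4 and 49.8 TPM after transplanting and at 49.2, 39.2 and 42.0 TPM in the rhizotron. Of the 3 genes that were lower in medium than in short taproots with libraries summed, MSTRG.12251 was at 8.82, 9.38 and 7.83 TPM in long container, 11.4, 4.73 and 6.97 TPM in long transplanted and 12.7, 8.68 and 8.58 TPM in long rhizotron taproots. MSTRG.30568 was at 4.96, 7.50 and 4.58 TPM in long container taproots, above all short and medium container ones, at 1.25, 1.43 and 1.85 TPM after transplanting and at 1.57, 1.86 and 1.79 TPM in the rhizotron. MSTRG.7461 was at 49.1, 54.5 and 54.7 TPM in long container and 25.4, 37.0 and 36.0 TPM in long transplanted taproots, above all medium ones in both, and at 17.4, 23.5 and 23.0 TPM in the rhizotron, below all medium ones.

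Dataset 1 holds the same contrast of length classes in container taproots of 7 and 8 weeks, with 6 medium and 6 short libraries. By the paper's account they were grown in the year before Dataset 2, from the same lot of acorns. At 8 weeks medium replicates 2 and 3 were near-identical (CV 0.032), and short replicates 1 and 2 lay just above that limit (0.052). In Dataset 1, 0 of 22460 genes (0.0%) passed in edgeR's test with the harvest as covariate. An unadjusted p under 0.05 was found for 3458 genes, and DESeq2 called 667. Of the 8843 genes called in the Dataset 2 containers and tested here, 60.8% had the same sign in Dataset 1, as did 55.7% of all genes tested in both. Of the 615 genes called over the 3 cultivations and tested here, 46.5% had the same sign, beside 50.95% of all genes. *PCC13* was at 0.630, 1.01 and 3.51 TPM in short and 0.710, 3.72 and 4.69 TPM in medium taproots at 7 weeks, and at 1.71, 1.34 and 0.260 TPM against 0.250, 10.2 and 10.9 TPM at 8 weeks. The classes overlapped at both harvests, and the log2 fold change was 1.69 ± 0.80 (adjusted p = 0.335). *ACO5* was at 46.8, 46.5 and 15.2 TPM in short and 37.2, 19.8 and 21.1 TPM in medium taproots at 7 weeks, and at 35.1, 33.4 and 22.5 TPM against 17.3, 22.2 and 21.5 TPM at 8 weeks, when medium lay below short without overlap (over both harvests -0.57 ± 0.27, adjusted p = 0.333). *ACO1* was at 10.4, 12.6 and 7.35 TPM in short against 5.95, 5.78 and 5.58 TPM in medium taproots at 7 weeks, and at 13.4, 13.2 and 6.99 TPM against 11.0, 14.9 and 15.7 TPM at 8 weeks, so that the order of the means differed between the harvests (over both -0.31 ± 0.25, adjusted p = 0.574). The 3 genes lower in medium taproots with libraries summed were not called in Dataset 1. MSTRG.12251 had a log2 fold change of -0.20 ± 0.20 (adjusted p = 0.668). For MSTRG.30568 (0.27 ± 0.33, adjusted p = 0.736) and MSTRG.7461 (0.17 ± 0.28, adjusted p = 0.812) the sign was the opposite of that in Dataset 2. Of the genes that rose or fell most over the 3 cultivations, MSTRG.33546 (-0.167 ± 0.391), MSTRG.15431 (-0.715 ± 0.891) and MSTRG.14155 (0.167 ± 0.306) also had the opposite sign. MSTRG.30717 had the same sign (-3.719 ± 0.888). None of the 11 named genes was called in Dataset 1 either. Elongation zone genes had a median log2 fold change of 0.85 there (13 tested, 0 called) and meristematic zone genes -0.10 (119 tested, 0 called).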

How the data were processed

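The deposited expected counts and TPM were made by the authors, who trimmed reads of stranded mRNA libraries with BBDUK, removed ribosomal reads, aligned what remained with STAR to the species' genome, assembled transcripts with StringTie and estimated gene values with RSEM on Bowtie 2 alignments, observing strand. RSEM divides reads between near-identical gene copies, so that such copies cannot be separated. The expected counts deposited by the authors are not normalized. The TPM deposited by the authors are scaled to gene length and library and were used for levels.

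Expected counts were rounded and tested with the quasi-likelihood test of edgeR 4.0.16 in R 4.3.3 (filterByExpr on the 6 groups with a minimum count of 10, TMM factors, Benjamini-Hochberg adjustment over all genes, threshold 0.05), after the fit had been tested on simulated data. The pooled fit had cultivation as covariate, and the fit by cultivation had 1 coefficient per group with a spread shared by the 18 libraries. Standard errors are approximate and were taken from the F statistic (the size of the log2 fold change over the root of F). Where every library of a class had 3 counts or fewer, the fold is a lower bound that sets 3 counts in each of them.

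Gene lists needed an adjusted p under 0.05, a log2 difference of at least 3 and a mean of at least 10 TPM in the higher arm. Named were the 11 primer genes and, among genes with an adjusted p under 0.05 and at least 10 TPM in the higher arm, the 2 that rose and the 2 that fell most over all cultivations with the same direction in each, the 1 that rose and the 1 that fell most without overlap within each, and the 2 with the smallest p for the difference between cultivations. Members and lists were chosen with earlier results of these data known. None of the 35397 IDs matched the RefSeq gene table (0 matched). The results were recomputed with DESeq2 1.42.0, with limma 3.58.1 (pseudocounts of 1 and 0.1 on log2 TPM), without TMM factors, without the filter, with a stricter filter (mean count 50), with a minimum fold of 2 and with a replicate block, in 1 fit of all 30 groups of Dataset 2, after leaving out each cultivation or replicate, and with near-identical libraries summed. The last of these without short container replicate 3 was added after the data were seen. Python 3.11.15 with numpy 2.4.6, pandas 2.3.3 and matplotlib 3.10.9 was used for distances, summaries and figures.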

Additional observations from a re-analysis of the deposited data

Results flagged for a closer look

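The contrast of medium with short taproots differed between cultivations, by a test of the difference itself, for 10433 genes. Among the named genes the adjusted p of this difference (edgeR) was 6.52e-07 for *CERD*, 2.53e-06 for *PCC13*, 8.53e-04 for *PIN2*, 0.0012 for *ACO5*, 0.0013 for *ACO1* and for *GST*, 0.0016 for *GERL1* and 0.0272 for *UBQ*. It was 3.29e-09 for MSTRG.30271 and 3.97e-08 for MSTRG.34251. With near-identical libraries summed the difference still passed for *CERD*, *PCC13*, *PIN2*, *ACO1*, *GST*, MSTRG.30271 and MSTRG.34251, and it no longer passed for *GERL1* (adjusted p = 0.0667), *ACO5* (0.0528) and *UBQ* (0.114). Without short container replicate 3 as well it passed for *CERD*, *PCC13*, *GERL1*, MSTRG.30271 and MSTRG.34251, and not for *PIN2* (0.0644), *ACO5* (0.0646), *GST* (0.0695), *ACO1* (0.112) and *UBQ* (0.225). Cultivation, plant age, acorn age and year of sowing cannot be told apart in these differences where transplanted seedlings enter.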

How the results depend on the processing

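Counts of called genes moved with how near-identical libraries were treated. In the order all cultivations, container, transplanted, rhizotron and difference between cultivations, they were 714, 9454, 3704, 3097 and 10433 with the 18 libraries, 3, 6252, 678, 47 and 3252 with near-identical libraries merged, and 4, 2078, 1208, 378 and 2764 without short container replicate 3 as well. DESeq2 called 2427 over all cultivations and 667 in Dataset 1. In simulated libraries that varied independently, 14.6% of DESeq2 calls over all cultivations were false, against 6.9% for edgeR's test. In the simulated container contrast these shares were 22.7% and 5.3%. The simulations changed 100 genes by 1 and 100 by 2 on the log2 scale and gave all groups the same spread per gene. The pooled simulation had the same change in every cultivation. The deposited libraries differ in these respects, so that these shares cannot be carried over to their counts. A fold change of at least 2 left 229, 2731, 1811 and 1477 genes, and the fit of all 30 groups gave 7175 over all. That fit had 1 coefficient per group and tested the mean of the 3 contrasts. The pooled fit of the 18 libraries had 1 length difference for all cultivations, so that differences between cultivations counted as spread. The counts of 714 and 7175 therefore come from different tests. Without the container pair 2459 genes were called over all, without the transplanted pair 4787 and without the rhizotron pair 316. Leaving out each replicate gave 281 to 991 over all, 7168 to 10046 in the container, 2185 to 5501 after transplanting, 1211 to 5362 in the rhizotron, 8541 to 11620 for the difference and 0 to 149 in Dataset 1. The highest transplanted and rhizotron counts were those without short container replicate 3, and the 149 that without medium replicate 1 of the second harvest. Over all cultivations the count moved by over 1.5 times without short container 1 (467), short transplanted 1 (366), short rhizotron 1 (460), medium transplanted 3 (464) and medium rhizotron 2 (281) or 3 (346). It moved so in transplanted seedlings without any 1 of their 6 libraries (2185 to 2333), and in the rhizotron without short replicate 1 (1766) or 2 (1893) or medium replicate 2 (1211) or 3 (1422). The cause was not tested.

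With a replicate block 14, 6948, 2143, 1349 and 6520 genes were called, and 3 in Dataset 1. Same-numbered medium and short libraries did not deviate together (9 correlations of -0.35 to 0.07, 0 of 9 above 0.1, and 0 of 9 medium libraries nearest to their own number). With 3 libraries per group, some of them near-identical, these values cannot tell whether the numbers pair the libraries.

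With limma on log2(TPM + 1), which has no TMM factors, 744 genes were higher and 126 lower over all, 6910 and 2346 in the container and 1611 and 759 in the rhizotron. Of the list medians, those of the elongation zone were 1.47 (container) and -1.19 (transplanted) with a log2 limit of 2 for the lists, and at this limit lateral root genes were at -1.01 (transplanted), taproot genes low in lateral roots at 0.27 (transplanted) and -0.53 (rhizotron), dying taproot genes at 0.75, -0.29 and -1.73 (container, transplanted, rhizotron) and growing taproot genes at 0.21 (transplanted) and 0.032 (rhizotron, a change of sign). Without TMM factors lateral root genes were at 0.15 (rhizotron), dying taproot genes at 0.66 (container) and growing taproot genes at 0.0011 (rhizotron, a change of sign). Merged, taproot genes low in lateral roots were at 0.43 and dying taproot genes at -0.45 (both transplanted). Genes present in one class only numbered 2, 31 and 8 with 50 counts required.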
